A study of Mus musculus with 16 samples.

Results

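The mRNA levels of 10 genes linked to macrophages, *Adgre1*, *Cd68*, *Csf1r*, *Lyz2*, *Mrc1*, *Cd163*, *C1qa*, *Ctss*, *Fcrls* and *Ccl2*, not all of them specific to these cells, were examined in skeletal muscle by matching their symbols to the gene identifiers of a table of counts. These 10 were found among the 55471 genes of the table, and all 10 were among the 14331 genes with enough counts to be tested. The libraries came from 16 male mice, 1 library a mouse, and 10 were labelled *Npr1*+/- (heterozygous) and 6 *Npr1*+/+ (wildtype, littermates). *Npr1* encodes guanylyl cyclase A (GCA), the receptor of atrial natriuretic peptide (ANP), and the line carries the Npr1tm1Gar allele, a disruption of the gene in every cell, after at least 10 generations of backcross from B6.129 to C57BL/6J. All mice, controls included, were 12 weeks old by the design text, ate a high-fat diet (HFD, 60% of energy from fat) for 12 weeks and lived at 21°C in cages 675, 676, 677 and 678, each holding mice of both labels. The 10 heterozygous mice weighed 43.6 ± 3.79 g (SD) and the 6 wildtype mice 47.4 ± 4.69 g. The labels do not name the muscle that was taken.

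Macrophages are phagocytes that live in every tissue, where they clear dead cells and debris and release signals that call in or quiet other immune cells. In muscle they lie between the fibers, some kept up locally and others made from blood monocytes that enter along chemokine gradients. Obesity is known to raise macrophage numbers in adipose tissue, and the study asked, by PCR of *Adgre1*, *Ccl2*, *Il6*, *Tnf* and *Il1b*, whether inflammation accompanied the insulin resistance of muscle in GCA haploinsufficiency. In a piece of muscle, fewer macrophages and less of an mRNA per macrophage cannot be told apart.

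Library totals ran from 15273472 to 59682677 counts, and the deepest library (*Npr1*+/- 5) was above the next one at 29630298. *Npr1* itself was not lower in the libraries labelled heterozygous, at 13.6 ± 3.87 CPM (counts scaled for library depth with TMM factors, SD, n = 10) against 12.2 ± 1.05 (SD, n = 6), a log2 difference of 0.09 (SE 0.20), so this mRNA did not separate the labels and directions below are between libraries as labelled. A count of 3, taken as the floor of detection, was worth 0.0503 to 0.196 CPM across libraries. Each of the 10 genes had at least 1 count in all 16 libraries. Markers of muscle fibers were the highest of the cell type lists in every group (66054 to 121654 CPM summed over 5 genes), the 8 markers listed for macrophages summed to 48.1 to 181 CPM, and *Ly6g* (neutrophil) and *Myl7* (heart) were at 0 in all libraries.

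The upstream sequence is shown for 3 genes that differed in what follows: *Mrc1*, which was correlated with 6 of the others, *Cd163*, which was correlated with none, and *Ctss*, which with *Fcrls* had the lowest unadjusted p-values of the 10 for the label. Each run is read 5′ to 3′ on the strand of the gene, in build GRCm38.p6, from 250 bases before the RefSeq start up to that start or, for *Mrc1*, up to the gene start of the table of counts, which lies 22 bases earlier. Capitals mark the PU box core GAGGAA, or TTCCTC on the other strand, which the myeloid factor PU.1 can bind. The motif was present in the 250 bases before the start in 23.3% of all 32851 promoters in the table and in 4 of the 6 of these genes that the table holds (*Mrc1*, *Fcrls*, *Ctss* and *Cd68*, not *Cd163* or *Lyz2*). *Mrc1* lies at chr2:14229164-14229391 (forward strand), *Cd163* at chr6:124304401-124304650 (forward) and *Ctss* at chr3:95526536-95526785 (forward).
Mrc1: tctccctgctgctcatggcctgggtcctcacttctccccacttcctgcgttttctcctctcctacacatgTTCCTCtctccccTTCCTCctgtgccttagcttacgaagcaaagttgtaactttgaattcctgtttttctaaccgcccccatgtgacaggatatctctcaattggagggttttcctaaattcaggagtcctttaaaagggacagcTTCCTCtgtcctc
Cd163: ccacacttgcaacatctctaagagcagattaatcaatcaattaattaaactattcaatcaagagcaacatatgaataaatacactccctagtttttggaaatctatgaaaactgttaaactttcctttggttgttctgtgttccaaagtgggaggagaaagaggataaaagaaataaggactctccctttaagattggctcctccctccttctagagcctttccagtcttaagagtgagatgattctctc
Ctss: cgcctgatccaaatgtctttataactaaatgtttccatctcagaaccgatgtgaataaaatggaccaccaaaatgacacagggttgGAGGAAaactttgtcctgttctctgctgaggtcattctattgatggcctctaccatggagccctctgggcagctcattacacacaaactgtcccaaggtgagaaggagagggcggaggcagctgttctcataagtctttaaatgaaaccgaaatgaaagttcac
*Mrc1* held 3 matches, starting 35, 167 and 180 bases before the RefSeq start, *Ctss* 1 at 164 bases and *Fcrls* 1 at 144 bases. The window of *Fcrls* is not shown because 214 of its bases, the match included, lie inside the gene as the table of counts gives it. A match of 6 letters is a description of the window and no evidence of binding.

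When levels were compared per kilobase of transcript, on the scale of mean CPM per kb over the 16 mice, *Lyz2*, the lysozyme of phagocytes, was the highest at 40.0 ± 17.6 (SD, n = 16), followed by *C1qa*, a chain of complement C1q, at 16.7 ± 6.89. *Ctss*, the lysosomal protease cathepsin S, came next at 4.90 ± 2.50. The order *Lyz2*, *C1qa*, *Ctss*, *Cd68* held within each of the 16 mice. Below that the order was *Cd68* (2.19 ± 0.955), *Csf1r* (1.64 ± 0.381), *Fcrls* (1.33 ± 0.742), *Mrc1* (1.18 ± 0.300), *Cd163* (1.17 ± 0.299), *Adgre1* (0.773 ± 0.315) and *Ccl2* (0.721 ± 0.420), and each of these steps held in 10 to 13 of 16 mice, with spreads that overlapped. Reads of *Lyz2* could in part belong to its close paralog *Lyz1*, and 15.1% of the exon bases of *Csf1r* are shared with *Hmgxb3* on the opposite strand. Whether counting used strand is not given in the sources used here.

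For the genes that identify the lineage, the ranges of the labels overlapped. *Adgre1*, which encodes the surface receptor F4/80, ran from 0.637 to 4.13 CPM (median 2.19, n = 10) in libraries labelled *Npr1*+/- and from 1.59 to 3.21 CPM (median 2.50, n = 6) in those labelled *Npr1*+/+. All *Npr1*+/+ values lay inside the range of the *Npr1*+/- values, in which 4 libraries were above and 3 below every *Npr1*+/+ library. In the edgeR fit with cage and body weight, its log2 fold change (*Npr1*+/- over *Npr1*+/+) was 0.10 (SE 0.30, 95% interval -0.54 to 0.73), and without *Npr1*+/+ 4 it was 0.61. *Csf1r*, the receptor for the growth factor that macrophages need to survive, ran from 6.28 to 12.3 CPM (median 9.66) and from 7.72 to 13.2 CPM (median 9.62), with a log2 fold change of -0.0035 (SE 0.19). Its interval, -0.41 to 0.41, was the narrowest of the 10 genes. *Lyz2* ran from 17.2 to 105 CPM (median 49.7) and from 40.6 to 79.2 CPM (median 48.5), with a log2 fold change of -0.09 (SE 0.27). *Cd68*, a lysosomal membrane protein of phagocytes, ran from 0.735 to 4.95 CPM (median 2.20) and from 1.72 to 4.59 CPM (median 3.08), with a log2 fold change of -0.35 (SE 0.33). Within cages, the mean of libraries labelled *Npr1*+/- was lower in 4 of 4 for *Csf1r*, *Lyz2* and *Cd68* and in 3 of 4 for *Adgre1*. These means were not adjusted for body weight and rest on few mice. The *Npr1*+/- and *Npr1*+/+ mice numbered 2 and 2 in cage 675, 3 and 1 in cage 676, 1 and 2 in cage 677, and 4 and 1 in cage 678. Without *Npr1*+/+ 4 the log2 fold change of *Cd68* was -0.083.

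**Figure D1:**
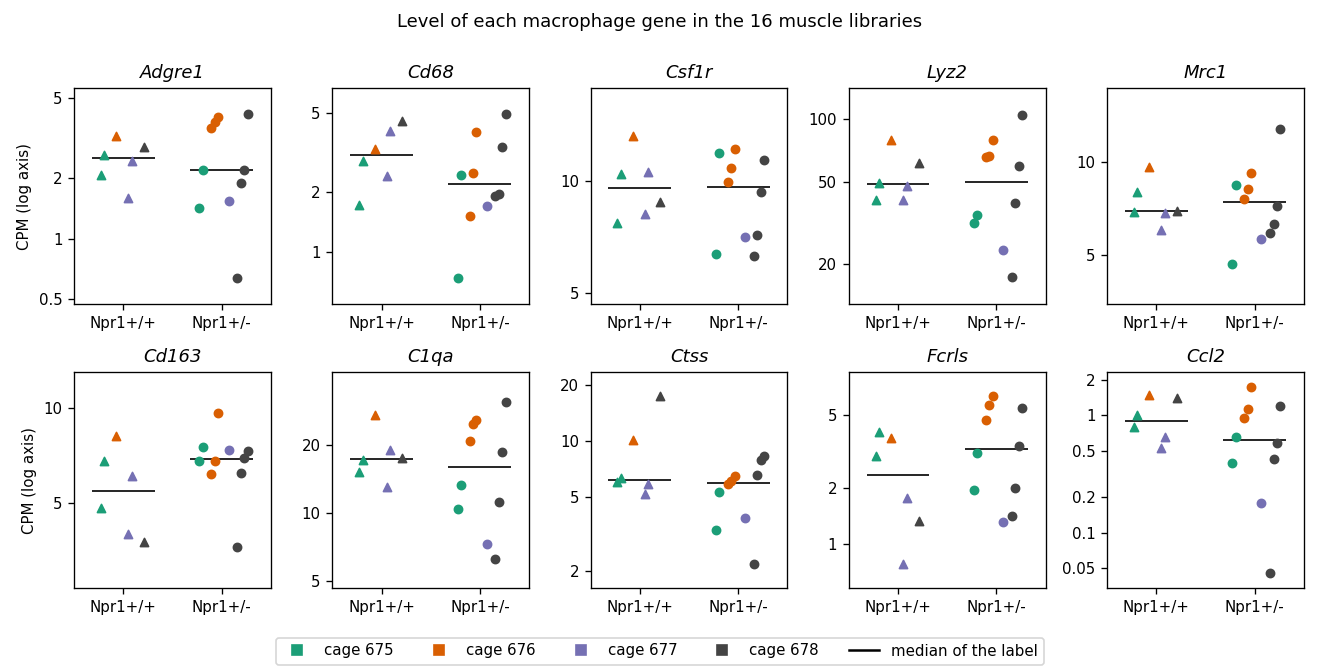
CPM (log axis) of each of the 10 genes in every library, by genotype label, with 1 point per mouse colored by cage and a line at the median of the label. The groups overlap in every panel, 1 *Npr1*+/- library (*Npr1*+/- 7) is lowest for 6 genes, and the *Npr1*+/+ library at 17.3 CPM of *Ctss* stands above all others.

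Among the scavenger receptors of tissue-resident macrophages, *Mrc1* (mannose receptor CD206) ran from 4.71 to 12.7 CPM (median 7.40) in libraries labelled *Npr1*+/- and from 6.01 to 9.60 CPM (median 6.93) in those labelled *Npr1*+/+, and its log2 fold change was 0.08 (SE 0.21). *Cd163*, which takes up hemoglobin bound to haptoglobin, ran from 3.64 to 9.58 CPM (median 6.86) and from 3.76 to 8.16 CPM (median 5.45), and its log2 fold change was 0.29 (SE 0.24, 95% interval -0.22 to 0.79), which was 0.087 without *Npr1*+/+ 4 and 0.50 without *Npr1*+/+ 5. *C1qa* ran from 6.28 to 30.9 CPM (median 15.9) and from 12.9 to 26.9 CPM (median 17.3), and its log2 fold change was -0.10 (SE 0.27). *Ccl2*, the chemokine MCP-1 that draws monocytes through their receptor CCR2, ran from 0.0455 CPM (1 count) to 1.73 CPM (median 0.619) and from 0.523 to 1.48 CPM (median 0.898). Its log2 fold change of -0.67 had the widest interval of the 10 (SE 0.44, -1.61 to 0.26), and without *Npr1*+/+ 4 it was -0.04.

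*Fcrls* and *Ctss* were the only 2 of the 10 genes with an unadjusted p under 0.05 for the label, against a background of 1.05% of all genes tested. None of the 10 passed the adjusted threshold of 0.05 (edgeR quasi-likelihood test, Benjamini-Hochberg over 14331 genes, adjusted p = 0.999994 for each), and neither did any other gene (0%, with 151 at an unadjusted p under 0.05). DESeq2 called 6 genes and limma-voom 0 by label, none of them among the 10. *Fcrls*, an Fc receptor-like scavenger gene of resident macrophages and microglia, ran from 1.31 to 6.29 CPM (median 3.25) in libraries labelled *Npr1*+/- and from 0.774 to 4.02 CPM (median 2.37) in those labelled *Npr1*+/+. The groups overlapped, with 4 *Npr1*+/- libraries above and 1 *Npr1*+/+ library below the other group. Its log2 fold change was 0.83 (SE 0.28, 95% interval 0.25 to 1.41, unadjusted edgeR p = 0.00802), the fold change stayed between 0.68 and 0.91 when each mouse in turn was left out, and libraries labelled *Npr1*+/- were higher within 3 of 4 cages. The value depended on the covariates: it was 0.51 with label alone (unadjusted edgeR p = 0.211), 0.23 with cage but without body weight (p = 0.499 by the same test) and 1.21 with body weight but without cage (p = 0.000794).

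*Ctss*, which trims the invariant chain of MHC class II, ran from 2.18 to 8.24 CPM (median 5.95) in libraries labelled *Npr1*+/- and from 5.17 to 17.3 CPM (median 6.15) in those labelled *Npr1*+/+. The groups overlapped, 2 *Npr1*+/+ libraries lay above all *Npr1*+/- libraries, and *Npr1*+/- was lower within 4 of 4 cages, as it was for *Cd68*, *Csf1r*, *Lyz2*, *C1qa* and *Ccl2*. Cages 676, 677 and 678 each held only 1 mouse of a label, and the cage means were not adjusted for body weight. The log2 fold change of *Ctss* was -0.74 (SE 0.26, 95% interval -1.30 to -0.19, unadjusted edgeR p = 0.0121). That value rested on *Npr1*+/+ 4, whose 17.3 CPM was above the next library at 10.1 CPM, and without it the log2 fold change was -0.07 (unadjusted edgeR p = 0.809). With label alone it was -0.60 (unadjusted edgeR p = 0.0491), without body weight -0.82 (p = 0.00333 by the same test) and without cage -0.60 (p = 0.0600).

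The B cell marker *Cd79a* also had a lower mean in libraries labelled *Npr1*+/-, at 0.357 ± 0.291 CPM (SD, n = 10) against 0.667 ± 0.309 CPM (SD, n = 6), on 174 counts in all. Its log2 fold change was -1.18 (SE 0.35, unadjusted edgeR p = 0.00334, adjusted p = 0.999994), with -1.42 without *Npr1*+/+ 4 and -0.88 with label alone (unadjusted edgeR p = 0.0655). The B cell genes *Cd79b* and *Ms4a1* were too low for the filter, at means of 0.333 and 0.265 CPM for *Cd79b* and 0.240 and 0.425 CPM for *Ms4a1*. The erythrocyte gene *Alas2* was the other marker outside the macrophage list with an unadjusted p under 0.05 (0.54, SE 0.25, unadjusted edgeR p = 0.0450). Their part in the label differences of *Ctss* and *Fcrls* was not tested.

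Both *Fcrls* and *Ctss* lie on the chromosome of *Npr1* (chr3:90450591-90465866, reverse strand). *Fcrls* (chr3:87250758-87263738, reverse strand) is 3.19 Mb and *Ctss* (chr3:95526786-95556400, forward strand) 5.06 Mb away, and the other 8 genes are on other chromosomes. Of the 222 other tested genes within 10 Mb of *Npr1*, 9 (4.05%) had an unadjusted p under 0.05 for the label, against 1.05% of all genes tested, and whether position bears on the label difference of either gene was not tested.

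The cytokine genes *Il6*, *Tnf* and *Il1b*, which belong to the same PCR panel as *Adgre1* and *Ccl2*, were barely detected. *Il6* had 29 counts over the 16 libraries and none in 3 of them, *Tnf* had 50 counts and none in 1 library, and *Il1b* had 75 counts. The highest values were 0.243, 0.557 and 0.485 CPM. These 3 genes were below the filter on low counts. In a fit of 30287 genes with no filter beyond 1 count, their log2 fold changes by label were 1.20 for *Il6* (SE 1.19, unadjusted edgeR p = 0.285), -1.21 for *Tnf* (SE 0.72, p = 0.0956 by the same test) and -0.31 for *Il1b* (SE 0.77, p = 0.669), so differences of this size were within the error at this depth.

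The slope on body weight, the other term of the fit, was positive for 9 of the 10 genes, with a median log2 change of 0.75 per 10 g, where 47.3% of all genes tested had a positive slope and the median was -0.03. *Fcrls* had the steepest slope, 1.41 per 10 g (SE 0.35, 95% interval 0.67 to 2.15, unadjusted edgeR p = 0.000934). *C1qa* followed at 0.92 (SE 0.37, unadjusted edgeR p = 0.0233), *Adgre1* at 0.90 (SE 0.41, unadjusted edgeR p = 0.0425) and *Lyz2* at 0.88 (SE 0.37, unadjusted edgeR p = 0.0300). These 4 of 10 had an unadjusted p under 0.05 with a positive slope, against a background of 4.74% of all genes tested. *Adgre1*, *Lyz2* and *C1qa* were correlated with each other over the mice (Pearson r = 0.91 to 0.97), so their calls are not independent. The 4 calls also depended on the fit. Without cage *Lyz2* was above 0.05 (0.77 per 10 g, unadjusted edgeR p = 0.0684) and *Csf1r* under it (0.50, p = 0.0277 by the same test). A block for the replicate number, with no cage term, gives *Npr1*+/- 7, 8, 9 and 10 a term each, as no *Npr1*+/+ library shares their number. Those mice then add nothing to the slopes, so a call lost there cannot be told from a loss of mice. With that block, *Adgre1* (p = 0.134), *Lyz2* (p = 0.149) and *C1qa* (p = 0.0693) were above 0.05 and *Mrc1* under it (p = 0.0359, edgeR). *Fcrls* was under 0.05 in each of these fits. None passed after adjustment (edgeR, Benjamini-Hochberg, adjusted p = 0.245 for *Fcrls* and 0.251 to 0.279 for the others), where 0% of all genes did in edgeR, 2 genes in DESeq2 and 0 in limma-voom.

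The slopes of the remaining genes were 0.82 for *Ccl2*, 0.68 for *Cd68*, 0.47 for *Mrc1*, 0.43 for *Csf1r*, 0.27 for *Ctss* and -0.09 for *Cd163* (SE 0.27 to 0.65). Leaving out 1 mouse moved that of *Ccl2* to 0.28 (without *Npr1*+/- 7) or 1.49 (without *Npr1*+/+ 4), and that of *Cd68* to 0.36 (without *Npr1*+/- 3) or 1.05 (without *Npr1*+/+ 3). That of *Csf1r* was 0.28 without *Npr1*+/- 3 and 0.73 without *Npr1*+/+ 3, and that of *Mrc1* 0.27 without *Npr1*+/- 9. *Npr1*+/- 7, the lightest mouse at 36.5 g, was the lowest library for 6 genes, at 0.637 CPM of *Adgre1*, 17.2 of *Lyz2*, 6.28 of *C1qa*, 6.28 of *Csf1r*, 2.18 of *Ctss* and 0.0455 of *Ccl2*. Without it the slopes of *Adgre1*, *Lyz2* and *C1qa* were 0.52, 0.51 and 0.60 (that of *Adgre1* was 1.42 without *Npr1*+/+ 4), and 1 of 10 genes (*Fcrls*, 1.30, unadjusted edgeR p = 0.00414) remained under 0.05, where 1.99% of all genes did with a positive slope. Without *Npr1*+/+ 3, 6 of 10 were under 0.05, where 6.95% of all genes were with a positive slope. Without *Npr1*+/- 3, the slopes of *Lyz2* (1.30, adjusted edgeR p = 0.0398) and *Fcrls* (1.45, adjusted edgeR p = 0.0246) passed the adjusted threshold, where 1205 of 14284 genes (8.44%) did with a positive slope and 3158 (22.1%) in either direction. The deepest library, *Npr1*+/- 5, came from a mouse of 39.4 g and was among the 4 lowest for 9 genes. The part of depth in the slopes was not tested.

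**Figure D2:**
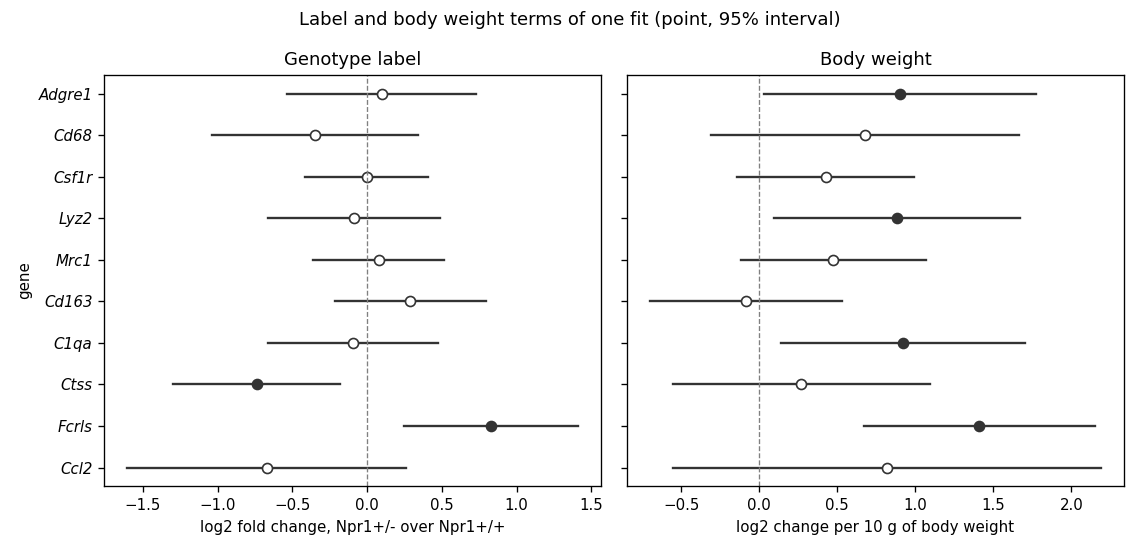
Point estimates and 95% intervals of the genotype label (log2 fold change, *Npr1*+/- over *Npr1*+/+, left) and of body weight (log2 change per 10 g, right) for the 10 genes in 1 edgeR fit with cage. Filled points have an unadjusted p under 0.05, which holds for *Ctss* and *Fcrls* on the left and for *Adgre1*, *Lyz2*, *C1qa* and *Fcrls* on the right, and none passes after adjustment.

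Markers of other cell types also had slopes on body weight. Of 37 tested, 6 had an unadjusted p under 0.05 with a positive slope, *S100a9* of neutrophils (2.65 per 10 g, SE 0.78), *Cd3e* of T cells (1.01, SE 0.35), *Alas2* of erythrocytes (0.99, SE 0.33), *Tnmd* of tendon (0.86, SE 0.30), *Myf5* of satellite cells (0.70, SE 0.30) and *Cd34* of progenitors (0.51, SE 0.18). Another 5 had a negative one at that level, the fast myosin gene *Myh4* (-2.08, SE 0.58), *Kdr* (-1.27, SE 0.49) and *Cdh5* (-0.88, SE 0.38) of endothelium, *Pax7* of satellite cells (-1.04, SE 0.44) and *Myh6*, listed for heart (-2.34, SE 0.86). Of the 4 endothelial genes 3 had a negative slope and 1, *Emcn*, a positive one (0.34, SE 0.23). Over all 14331 genes tested, 680 (4.74%) had a positive and 1769 a negative slope at that level, and the marker counts are to be read against these. None of the markers passed after adjustment in edgeR, and their part in the slopes of the 10 genes was not tested.

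Scaling by library size only, in place of TMM, moved the split of all genes with an unadjusted p under 0.05 for body weight from 680 positive of 2449 to 1501 positive of 2457. No slope of the 10 genes changed sign between these scalings.

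Cages differed for some of the same genes. Cage 676, whose 4 mice weighed 45.3 to 48.1 g, had the highest mean CPM for 8 of the 10 genes, and cage 677 had the lowest for 8. With label and body weight in the fit, *Lyz2* (unadjusted edgeR p = 0.0133), *Ctss* (0.0182), *Fcrls* (0.0212) and *C1qa* (0.0338) differed between cages at an unadjusted p under 0.05. These were 4 of 10 genes against a background of 7.36% of all genes tested, and none of the 10 passed after adjustment, where 4 of all genes did (0.0279%). *Npr1*+/- 9, in cage 678, was highest of all libraries for *Adgre1* (4.13 CPM), *Lyz2* (105), *Mrc1* (12.7) and *C1qa* (30.9).

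**Figure D3:**
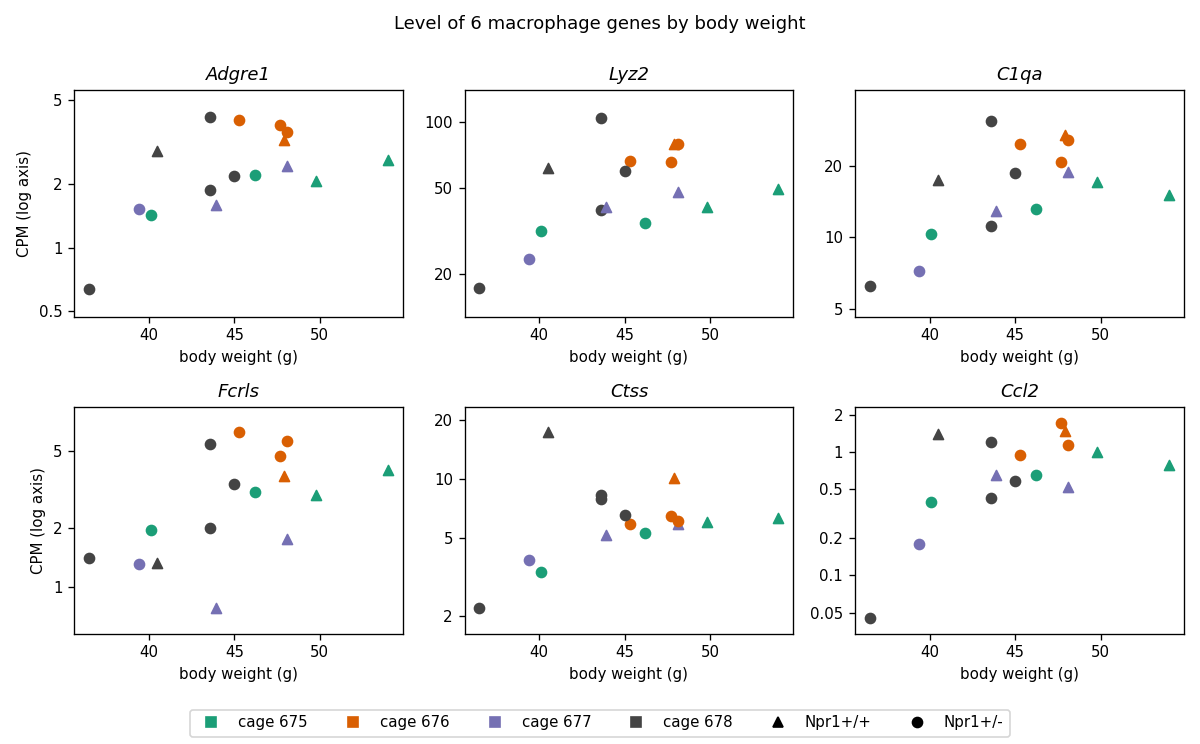
CPM (log axis) against body weight in g for 6 of the 10 genes, 1 point per mouse, colored by cage, with circles for *Npr1*+/- and triangles for *Npr1*+/+. The mouse of 36.5 g is lowest for 5 of the 6 genes shown, and the *Npr1*+/+ mouse of 40.5 g is highest for *Ctss* at 17.3 CPM.

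The slope on body weight was also compared between the labels. At an unadjusted p under 0.05 the slopes differed for *Ccl2* (2.38 per 10 g in *Npr1*+/- and -0.44 in *Npr1*+/+, difference 2.81, SE 0.95, unadjusted edgeR p = 0.00863), *Ctss* (1.15 and -0.47, difference 1.62, SE 0.58, p = 0.0132 by the same test) and *Cd163* (-0.55 and 0.53, difference -1.08, SE 0.47, p = 0.0342). These were 3 of 10 genes against a background of 3.41%, and none passed after adjustment (edgeR, Benjamini-Hochberg, adjusted p = 0.925), where 0% of all genes did. Without *Npr1*+/- 7 the differences were 1.81 for *Ccl2*, 0.56 for *Ctss* and -1.16 for *Cd163*, each above 0.05, and without *Npr1*+/+ 4 that of *Ctss* was 0.88. Of the 37 markers of other cell types, 6 also had an unadjusted p under 0.05 for the slope difference, among them 4 of the 5 adipocyte genes (edgeR, p = 0.0107 for *Adipoq* and *Cidec*, 0.0201 for *Cfd* and 0.0349 for *Lep*), and their part in the slope differences of the 10 genes was not tested.

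The levels of the 10 genes were compared with each other from mouse to mouse. Of their 45 pairs, 26 were correlated over the 16 mice, all positively (Pearson r of log2 CPM, two-sided permutation test with 100000 resamples, Benjamini-Hochberg over the 45 pairs), and 25 were by Spearman's rho. The lowest r among these 26 was 0.56, and 57.8% of the 45 pairs were at or above it, against 12.8% of all pairs of the 14331 genes tested, which share libraries and depth. A further 12.4% of all pairs were as far below 0, against 0% of the 45. The pair of *Lyz2* and *C1qa* was the closest, with r = 0.97 and rho = 0.95 (permutation p = 1e-05 for both, the smallest the resamples can give, adjusted 9.0e-05 and 0.00015), and r = 0.95 without the 2 mice farthest from the median of *Lyz2*. *Adgre1* followed *Lyz2* (r = 0.92, rho = 0.92), *C1qa* (r = 0.91, rho = 0.92) and *Ccl2* (r = 0.90, rho = 0.84), each with an adjusted permutation p of 9.0e-05 for r, and these were 0.87, 0.87 and 0.80 without the 2 mice farthest from the median of *Adgre1*. Centred within cage, the 4 values were 0.96, 0.92, 0.88 and 0.87. *Mrc1* was correlated with 6 of the other 9 genes, by Pearson r most closely with *Csf1r* (r = 0.74, rho = 0.79, adjusted permutation p = 0.00295 and 0.00180, 0.67 without the farthest 2). By Spearman's rho it was closest to *Adgre1* and *Ccl2* (rho = 0.81 each, r = 0.68 and 0.64).

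*Cd163* and *Cd68* had the fewest correlated pairs. *Cd163* was correlated with none of the other 9 genes after adjustment by r or by rho, its r ranging from -0.43 (*Ctss*) to 0.54 (*Fcrls*), and 1 of its 9 pairs (with *Fcrls*, permutation p = 0.0321, adjusted p = 0.0535) had an unadjusted p under 0.05. *Cd68* was correlated with *Ctss* alone (r = 0.59, adjusted permutation p = 0.0353), a call that did not hold by rho (rho = 0.54, adjusted permutation p = 0.0586). *Fcrls* and *Ctss*, whose label differences had opposite signs, had an r of 0.21. In the residuals after label, cage and body weight, 12 of the 45 pairs were under the threshold, 11 of them among the 26.

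Markers of other cell types were compared with the 10 genes in the same way. Against 1 marker each of 8 other cell types, 36 of 80 pairs were correlated after adjustment over the 80, 27 positively and 9 negatively (25 by rho). The smallest r called was 0.58 in size, and 33.8% of the 80 pairs were at or above it and 11.2% as far below 0, against 11.9% and 11.5% of all pairs of genes tested. *Hbb-bs*, a globin of erythrocytes, was positively correlated with 7 of the 10 genes by r and by rho (r = 0.87 with *Adgre1*, rho = 0.76, adjusted permutation p = 0.00112 and 0.0109, r = 0.72 without the farthest 2), and *Cd3e*, of the T cell receptor complex, with 8, or 4 by rho (r = 0.86 with *Lyz2*, rho = 0.85, adjusted permutation p = 0.00112 and 0.00320, r = 0.82 without the farthest 2). The tendon gene *Tnmd* was positively correlated with 7 (3 by rho) and the adipocyte gene *Adipoq* with 5 (2 by rho). *Pecam1* of endothelium was negatively correlated with 5 (6 by rho), most closely with *Lyz2* (r = -0.88, rho = -0.85, adjusted permutation p = 0.000800 and 0.00320, r = -0.80 without the farthest 2), and *Pax7* of satellite cells with 4 (3 by rho). *Cd163* was correlated with none of the 8 markers, and *Pdgfra* of fibro-adipogenic progenitors and *Cd79a* of B cells with none of the 10 genes.

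The other genes of these marker lists varied in how far they followed the 10 genes. By mean Pearson r with the 10 genes, *Pdgfra* (-0.13) was the lowest of the 4 genes listed for fibro-adipogenic progenitors, where *Dpt* was at 0.39, *Pi16* at 0.59 and *Cd34*, also found on endothelium, at 0.62. *Tnmd* (0.55) was the highest of 3 tendon genes, with *Scx* at 0.28 and *Fmod* at -0.0080. *Adipoq* (0.47) was the highest of 5 adipocyte genes, with *Lep* and *Cidec* at 0.38 each, *Plin1* at 0.084 and *Cfd* at 0.068. *Pax7* (-0.47) was the lowest of 3 satellite cell genes, with *Calcr* at -0.23 and *Myf5* at 0.17. *Pecam1* (-0.54) was the lowest of 4 endothelial genes, close to *Cdh5* and *Kdr* (-0.53 each), while *Emcn* was at 0.40, and the 3 erythrocyte genes ran from 0.51 to 0.61.

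Summed over whole marker lists, the 3 erythrocyte genes ran from 81.0 to 481 CPM in libraries labelled *Npr1*+/- and from 182 to 301 CPM in those labelled *Npr1*+/+, with *Npr1*+/- 9 the highest and *Npr1*+/- 7 the lowest, as for the 8 macrophage markers (48.1 to 181 CPM and 82.0 to 154 CPM). The 4 endothelial genes ran from 133 to 410 CPM and from 158 to 202 CPM, with *Npr1*+/- 7 the highest and *Npr1*+/- 9 the lowest. The 5 adipocyte genes ran from 33.6 to 420 CPM and from 94.1 to 338 CPM. The part of tissue composition in the levels of the 10 genes was not tested. Without *Npr1*+/- 7, the library at the end of most of these ranges, 18 of the 80 marker pairs were under the threshold, all of them among the 36, and 24 of the 45 pairs of the 10 genes, 23 of them among the 26.

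**Figure D4:**
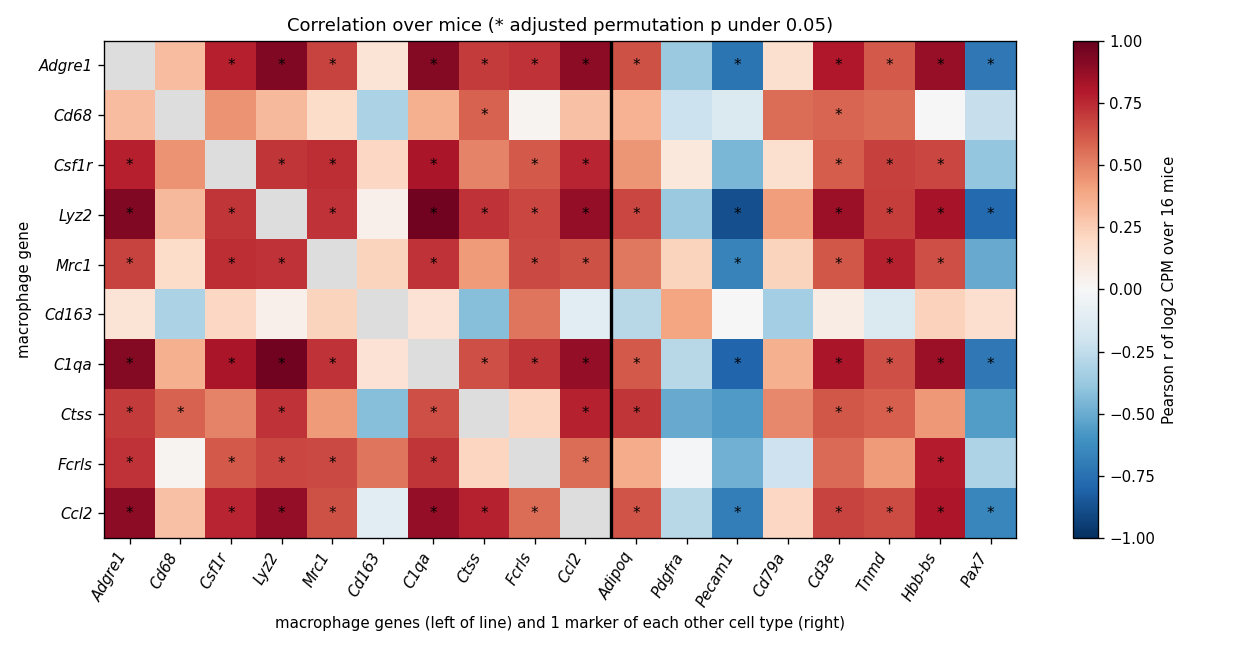
Pearson r of log2 CPM over the 16 mice between the 10 genes (rows) and, in columns, the same genes and 1 marker of each of 8 other cell types, from blue (-1) to red (1), with a star where the permutation p adjusted over the family of pairs is under 0.05. A block of red joins *Adgre1*, *Csf1r*, *Lyz2*, *Mrc1*, *C1qa*, *Fcrls* and *Ccl2*, the row of *Cd163* has no star, and *Pecam1* and *Pax7* are blue for most genes.

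Among all other genes tested, those whose log2 CPM was most like that of the 10 genes, by mean Pearson r over the 16 mice, were the other chains of C1q, *C1qc* (mean r = 0.71) and *C1qb* (0.70), then the lectin gene *Cd209f* (0.70), the chemokine gene *Ccl9* (0.70), *Fxyd2* (0.70), *Ptafr* (0.69), the chemokine gene *Ccl6* (0.68), *Islr* (0.68), the lectin gene *Clec10a* (0.67) and the MHC class II gene *H2-Aa* (0.67). The median over all genes tested was -0.04. With values centred within cage, 7 of these 10 genes stayed among the first 10, and by Spearman's rho 6 did.

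Wider lists of macrophage genes were read from the same fit. None of the genes in the lists of other macrophage genes (29 tested), resident macrophage genes (13), lipid-associated macrophage genes (10), monocyte genes (5), CSF1 and chemokine ligands and receptors (11) or inflammatory cytokines (3) had an unadjusted p under 0.05 for the label. The lowest was that of *Cbr2*, of resident macrophages (log2 fold change -0.45, SE 0.23, unadjusted edgeR p = 0.0647), which was -0.0087 without *Npr1*+/+ 4. Other log2 fold changes were -0.64 for the haptoglobin gene *Hp*, -0.35 for *Ccl6*, -0.34 for the galectin gene *Lgals3*, 0.34 for *Il18* and -0.20 for *Tgfb1* (SE 0.24 to 0.49). Over all genes tested, 47.3% had a positive body weight slope, 4.74% (680 genes) had a positive and 1769 genes a negative slope with an unadjusted p under 0.05, and the list counts are to be read against these shares. Of the list genes, 24 of the 29 other macrophage genes had a positive slope (median 0.48), 8 with an unadjusted p under 0.05, while the receptor *Mertk*, which takes up dying cells, had a negative slope at that level (-1.01, SE 0.35). Of the 13 resident macrophage genes 8 were positive (median 0.28), with *Clec10a* at 1.25 (SE 0.39) and the transcription factor *Maf* at -0.86 (SE 0.28). *Mertk* and *Maf* are also expressed outside macrophages. All 5 monocyte genes were positive (median 0.57), among them *Ccr2*, the receptor for *Ccl2*, at 1.13 (SE 0.44, unadjusted edgeR p = 0.0202). Of the chemokine genes, *Ccl8* (2.75, SE 0.85) and *Ccr1* (2.10, SE 0.64) had the steepest slopes, on 194 and 215 counts in all, and 7 of 11 were positive (median 0.04), 3 with an unadjusted p under 0.05. Of the 10 lipid-associated genes 9 were positive (median 0.35), 1 of them, the fatty acid carrier *Fabp5* (0.63, SE 0.23), with an unadjusted p under 0.05. Of the 7 tested genes of dendritic cells and MHC class II 6 were positive (median 0.39), with *H2-Aa* at 1.02 (SE 0.35). *H2-Ab1* was at 0.39 (SE 0.34), *H2-Eb1* at 0.08 (SE 0.34) and *Cd74* at -0.08 (SE 0.25). Of 3 cytokine genes 1 was positive, with *Nos2*, the inducible nitric oxide synthase, at -1.21 (SE 0.32). No gene of these lists passed after adjustment for label or body weight (0% of all genes tested did in either).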

How the data were processed

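Total RNA of skeletal muscle was extracted with an RNeasy kit, and mRNA libraries were sequenced as 52-bp paired-end reads (the labels name the Universal Plus mRNA-seq kit, the methods TruSeq Stranded mRNA). The deposited table holds raw counts per gene, made by the authors with STAR 2.7.2b (GRCm38, GENCODE) and featureCounts (1.6.4 in the submitters' processing notes). Gene coordinates are those of the table. The 10 genes, the other gene lists and the tests were chosen with earlier results of these data known. Genes kept by filterByExpr (minimum count 10) were fitted with edgeR 4.0.16 (TMM, robust quasi-likelihood test) on cage, body weight (per 10 g) and label over all 16 libraries, after the study's methods, with Benjamini-Hochberg adjustment over 14331 genes and a threshold of 0.05. SE are on the log2 scale. Log2 CPM used a prior count of 2. Each library is a separate mouse. Named beside the 10 genes were *Npr1*, *Il6*, *Tnf* and *Il1b*, the 10 genes most like them, and from each list up to 2 genes with the smallest p for label and for body weight. Some items of these lists, cell type markers included, are not reported here. On simulated counts of 14178 genes, 200 of them with a log2 label difference of 1, 96 of the 200 were called beside 8 genes without a label difference. That difference is larger than any of the 10 label values, so it does not tell how often differences of their size would be called. Alternatives were other covariates, scalings, filters, tests (DESeq2 1.42.0, limma 3.58.1) and leaving out each mouse. Intervals of fold changes rest on the spread between these mice.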

Additional observations from a re-analysis of the deposited data

Results flagged for a closer look

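In 1 of the 20 groups examined (10 genes, 2 labels), 1 library lay further from the rest than Dixon's 95% limit allows on the log2 CPM scale. *Cd163* in *Npr1*+/- 2 was at 3.64 CPM, the lowest of the 10 libraries with that label, and the next was at 6.19 CPM, a gap of 0.547 of the group's range. Chance flags about 1 in 20 groups.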

How the results depend on the processing

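None of the 10 genes passed the adjusted threshold for label, cage or the slope difference in any alternative, and for body weight only without *Npr1*+/- 3. For the label, *Ctss* was under an unadjusted 0.05 in 15 of 16 fits that left out 1 mouse (not without *Npr1*+/+ 4) and *Fcrls* in 16 of 16, but *Fcrls* was above it with label alone and without body weight, and *Ctss* without cage and with the replicate block (-0.51, p = 0.134 in edgeR). *Ccl2* came under it without body weight (-0.93, p = 0.0380) and without *Npr1*+/- 7 (-0.73, p = 0.0496), and *Cd163* with the replicate block (0.51, p = 0.0329). Fits that left out 1 mouse gave 0 to 3 genes by label, 0 to 3158 by body weight (0 to 2 of the 10 genes), 0 to 869 by cage (4 with all mice), 24 to 28 correlated pairs of the 10 genes, 18 to 42 marker pairs and 0 of the 10 genes by label, by cage and by slope difference.

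Some label fold changes changed sign with the covariates. With label alone *Tgfb1* was at 0.023. Without body weight *Adgre1* was at -0.23, *Mrc1* at -0.10, *Tgfb1* at 0.062 and *Il18* at -0.054. Without cage *Csf1r* was at 0.076, *Lyz2* at 0.15, *C1qa* at 0.13 and *Ccl6* at 0.055, and the body weight slopes of *Cd163* and *Ctss* were 0.22 and -0.0061. With body weight alone that of *Cd163* was 0.0063. *Csf1r* was at 0.0151 with RLE factors, 0.0130 without a filter and 0.0150 in DESeq2. When 1 mouse was left out, the label fold changes that changed sign ranged from -0.066 to 0.61 for *Adgre1*, -0.14 to 0.087 for *Csf1r*, -0.28 to 0.16 for *Lyz2*, -0.050 to 0.18 for *Mrc1*, -0.28 to 0.050 for *C1qa*, -0.067 to 0.23 for *Npr1*, -0.55 to 0.48 for *Lgals3*, -1.09 to 0.59 for *Hp* and -0.53 to 0.16 for *Ccl6*. The slopes that did so ranged from -0.23 to 0.079 for *Cd163* and from -0.16 to 0.96 for *Ctss*. The cause was not tested.

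Counts of genes by label were 8 without a filter and 6 in DESeq2. By body weight they were 2 in DESeq2. By cage they were 0 with library size only, 23 without a filter, 1 with at least 10 counts in every library (which left out *Ccl2*), 78 in DESeq2 and 1 in limma-voom. In residuals after label, cage and body weight, 12 pairs of the 10 genes and 21 marker pairs were correlated. The values for slope differences and for *Cd79a* under alternatives were added after seeing the data.

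Replicate numbers name different animals, and same-numbered libraries deviated together only weakly (mean r = 0.08 over 6 pairs), so they were not taken as pairs. A replicate block in place of the cage term sets aside *Npr1*+/- 7, 8, 9 and 10, whose numbers no *Npr1*+/+ library shares, so its calls rest on fewer mice. With it 2 genes passed by label and 1 by body weight, none of the 10. *Csf1r* was at 0.041 and *Tgfb1* at 0.091 by label, and *Cd163* had a slope of 0.51 and a slope difference of 0.57.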
